A study of Mus musculus with 6 samples.

Results

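Prr11 and 9 other genes whose proteins build or cross-link the mitotic spindle and its midzone were followed in a mouse macrophage cell line given a control siRNA or an siRNA against Tet3. The genes are Prr11, Nusap1, Tpx2, Hmmr, Tacc3, Dlgap5, Aspm, Prc1, Anln and Ect2. They were taken by symbol from the deposited table, which gave 10 genes of 22027. The 10 were picked with their values in this comparison in view, so their levels and changes are a description and carry no test of their own.

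The cells were RAW 264.7, an established mouse line labelled as wild-type macrophages. The siCTL group (n = 3) received a non-targeting siRNA and the siTET3 group (n = 3) a single siRNA against Tet3, which encodes a dioxygenase acting on methylcytosine, both at 10 pmol per well by lipofection with harvest 48 h later. The groups rest on the sample titles, because the treatment label names the Tet3 siRNA in all 6 samples. Whether replicates were separate cultures is not stated, so the p-values given reflect the scatter of these libraries alone, and part or all of it may be technical.

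During mitosis a bipolar array of microtubules, the spindle, captures and separates the chromosomes. Spindle assembly factors nucleate microtubules near chromatin and at the poles and bundle them into fibres that reach the kinetochores. After the chromosomes part, antiparallel microtubules overlap at the midzone, where proteins of the central spindle set the plane of the cleavage furrow. Most of these genes are transcribed in the G2 and M phases of cycling cells, and their messenger RNAs are low in resting macrophages.

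Reads counted in genes, as recovered from the deposited values, summed to between 29587171 and 61709131 per library. Values are read counts that the authors divided by 1 size factor per library, called normalised reads here, and a count of 3 reads corresponded to between 1.90 and 3.82 normalised reads. Tet3 itself did not separate the groups, with 2171, 1911 and 2027 normalised reads in siCTL replicates 1 to 3 and 1939, 1980.4 and 1950.4 in siTET3 replicates 1 to 3 (log2 change -0.06, limma adjusted p = 0.699, exact two-sided permutation p = 0.4, where the smallest possible is 0.1). Since Tet3 does not check the labels, the treated samples are called the siTET3-labelled libraries. The log2 change of Tet3 was 0.03 with scaling to library size alone. Macrophage markers were abundant in every library (Lyz2 between 332088 and 418499 normalised reads), and 4 of 4 epithelial markers were at 0 in all 6. Of 6 T cell markers, Cd3e, Cd4 and Cd8a were at 0 in all 6 libraries, while Lck had between 201 and 298 normalised reads and made up nearly all of the summed level of 201 to 299. Of 5 fibroblast markers, Col1a2 had 286 and Col3a1 144 normalised reads in siCTL replicate 2 and at most 3.27 in any other library, while Col1a1 was at 0 in all 6. In summed level the fibroblast markers reached 539.6 in siCTL replicate 2 and lay between 7.13 and 11.5 in the other 5 libraries, while 5 neutrophil markers summed to 2.53 there and to between 40.5 and 62.1 elsewhere. The part of these differences in the results was not tested.

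The promoters of the 10 genes were read for the motifs known to drive transcription late in the cell cycle. RefSeq promoters on GRCm38.p6, from 250 bases before to 50 after the start, were found for 8 of the 10, all but Tpx2 and Dlgap5. The cell cycle genes homology region, or CHR, is bound by the DREAM and MuvB complexes, and the CCAAT box by the factor NF-Y, and in many mitotic genes both lie close to the start. The CHR was searched as TTTGAA or TTTAAA and the box as CCAAT, on both strands. The promoters of Prr11, Hmmr, Aspm and Prc1 are shown because each holds both motifs, and that of Nusap1 because it holds neither. Capitals mark every match.

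Prr11: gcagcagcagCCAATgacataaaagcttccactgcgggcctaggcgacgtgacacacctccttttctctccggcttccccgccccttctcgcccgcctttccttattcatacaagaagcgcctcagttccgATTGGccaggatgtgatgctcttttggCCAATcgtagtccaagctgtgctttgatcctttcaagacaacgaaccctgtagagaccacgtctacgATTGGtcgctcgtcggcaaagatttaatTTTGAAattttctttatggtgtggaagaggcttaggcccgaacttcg
Hmmr: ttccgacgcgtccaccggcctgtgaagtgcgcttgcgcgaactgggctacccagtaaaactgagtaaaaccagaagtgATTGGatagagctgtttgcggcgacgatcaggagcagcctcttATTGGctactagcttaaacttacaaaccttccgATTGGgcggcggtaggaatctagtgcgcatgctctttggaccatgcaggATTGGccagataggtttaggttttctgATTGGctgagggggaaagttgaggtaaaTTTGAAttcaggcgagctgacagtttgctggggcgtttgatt
Aspm: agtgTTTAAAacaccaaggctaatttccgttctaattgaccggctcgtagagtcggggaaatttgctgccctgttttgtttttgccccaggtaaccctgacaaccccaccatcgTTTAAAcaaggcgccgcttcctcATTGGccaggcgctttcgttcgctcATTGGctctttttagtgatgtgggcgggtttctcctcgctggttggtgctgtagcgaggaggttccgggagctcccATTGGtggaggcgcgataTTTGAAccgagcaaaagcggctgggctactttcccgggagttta
Prc1: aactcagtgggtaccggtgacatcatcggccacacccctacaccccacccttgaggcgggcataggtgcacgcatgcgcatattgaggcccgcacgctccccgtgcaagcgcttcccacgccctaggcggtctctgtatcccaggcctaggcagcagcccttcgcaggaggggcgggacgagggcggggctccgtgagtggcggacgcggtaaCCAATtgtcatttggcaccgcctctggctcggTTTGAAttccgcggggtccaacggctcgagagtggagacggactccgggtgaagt
Nusap1: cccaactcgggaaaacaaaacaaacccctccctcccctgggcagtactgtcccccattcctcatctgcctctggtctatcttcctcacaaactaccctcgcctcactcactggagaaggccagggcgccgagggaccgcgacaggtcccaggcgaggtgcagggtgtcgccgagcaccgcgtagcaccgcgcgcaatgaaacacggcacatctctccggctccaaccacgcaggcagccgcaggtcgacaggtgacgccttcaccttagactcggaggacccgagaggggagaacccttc

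These windows lie at chr11:87108665-87108964 (Prr11, minus strand), chr11:40733388-40733687 (Hmmr, minus strand), chr1:139454523-139454822 (Aspm, plus strand), chr7:80294201-80294500 (Prc1, plus strand) and chr2:119618048-119618347 (Nusap1, plus strand). The CHR was found in 6 of the 8 promoters, against 27.8% of 27025 RefSeq promoters of the same window, 1 per gene. A CCAAT box was found in 5 of 8, against 37.9%, and both motifs in the same 5, against 10.9%. Prr11 held 4 CCAAT boxes and Hmmr 5, Aspm and Ect2 had 3 each, and Prc1 had 1. Nusap1 and Tacc3 held neither motif, and Anln held the CHR alone.

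In all 6 promoters a CHR lay near the start. Counting the start as base 1, TTTGAA on the strand of the gene began at base 4 in Prr11, 7 in Aspm, 9 in Hmmr, 29 in Anln and 40 in Ect2, and it began 5 bases before the start in Prc1. All 6 fell between 20 bases before and 50 after the start, a window chosen after these positions were seen, where 1.71% of all promoters hold TTTGAA on that strand. Neither the interferon-stimulated response element, searched as GAAA, a gap of 2 bases and GAAA, nor an E2F site, searched as TTTCCCGC, TTTGGCGC or TTTCGCGC, was matched in any of the 8, against 3.49% and 1.91% of all promoters. Motif matches describe letters in a window and show no binding.

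**Figure D1:**
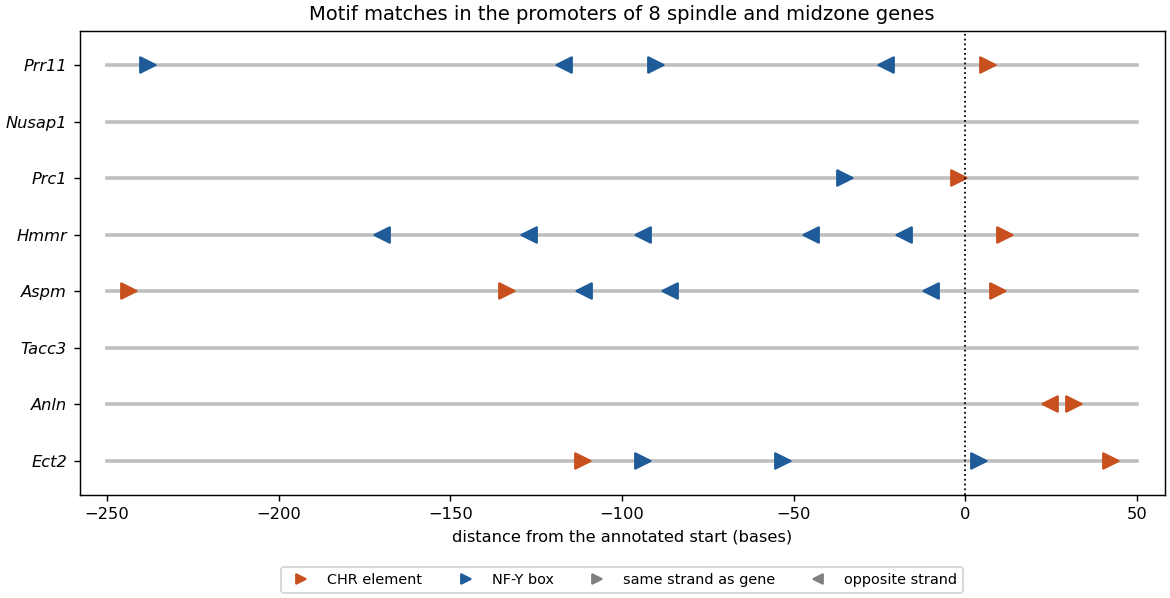
Motif matches in 8 promoters, with the distance from the annotated start in bases on the horizontal axis and 1 grey line per gene. Orange arrowheads are CHR matches and blue ones NF-Y boxes, pointing right when on the strand of the gene (a palindrome is drawn so), and 6 genes have an orange arrowhead close to the start.

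Of the 10 genes, 9 had a higher mean in the siTET3-labelled libraries, by folds from 1.16 to 1.94, and Dlgap5 had a fold of 0.973. All 10 passed the minimum of 10 normalised reads on average. The median log2 change of the 10 was 0.66, against 0.00 over the 11591 genes tested, of which 49.3% were above 0. The groups did not overlap for 7 of the 10, with the siTET3-labelled libraries higher, against 16.1% of all genes tested. Limma called Prr11 alone of the 10 at an adjusted p under 0.05, against 0.293% of all genes called higher, and edgeR likewise called 1, against 0.285%. DESeq2 on recovered reads called 6, against 1.91%. The authors' deposited table lists 6 of the 10 as higher at the same threshold, against 1.55% of the genes it tests. Because the genes were chosen on this contrast, nothing is read from these counts. In bulk RNA, more cells in mitosis and more messenger RNA per cell cannot be told apart.

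**Figure D2:**
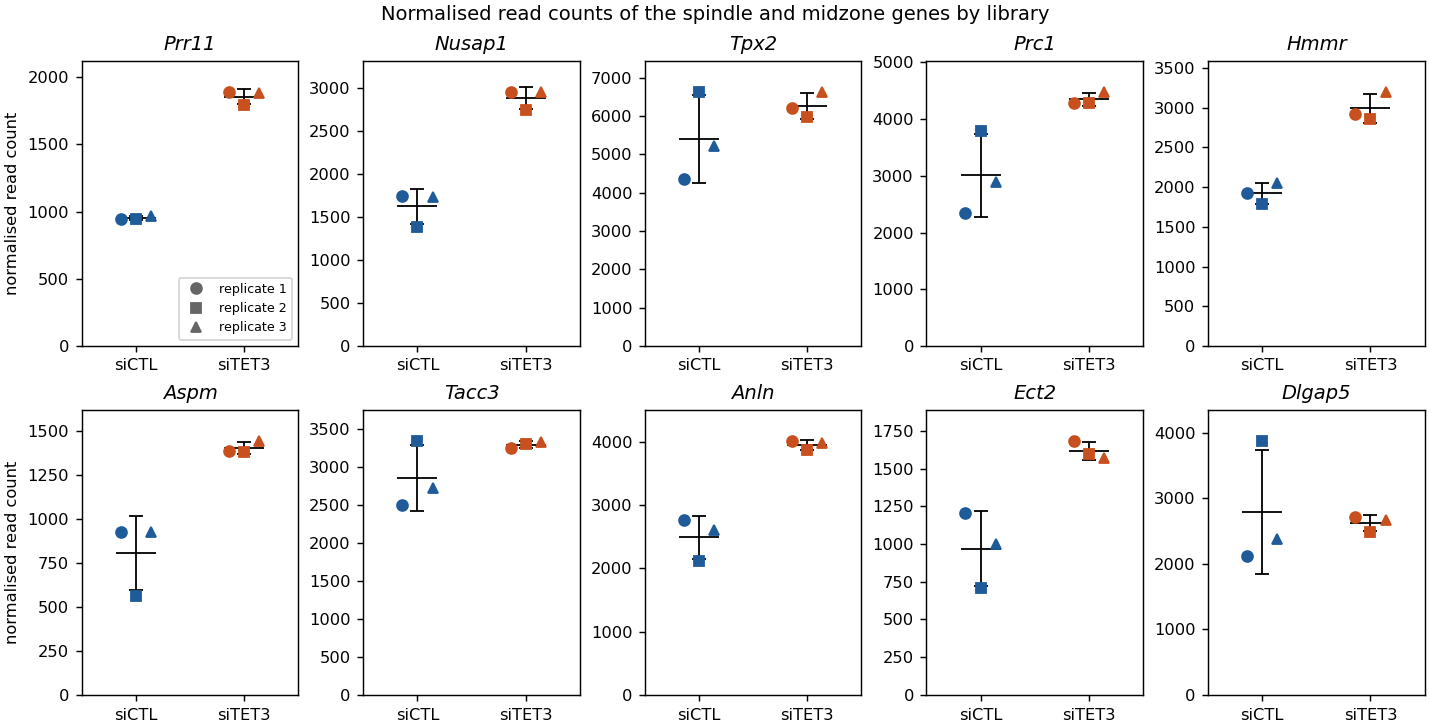
Normalised read counts of each gene in the 6 libraries, 1 panel per gene, with replicate numbers as symbols, the group mean as a bar and the SD (n = 3) as whiskers. The 3 libraries labelled siTET3 lie close together in every panel, and siCTL replicate 2 (square) stands off the other siCTL libraries, downwards in Aspm and Ect2 and upwards in Tpx2, Prc1 and Dlgap5.

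Prr11 had the largest fold of the 10 and the smallest spread among controls. It encodes a proline-rich protein that in human cells is needed for cell cycle progression, and the mouse gene (ENSMUSG00000020493.8) lies at chromosome 11, from 87089153 to 87108708 on the minus strand of GRCm38. Prr11 had 948, 942 and 969.7 normalised reads in siCTL replicates 1 to 3 and 1893, 1789.9 and 1880.4 in siTET3 replicates 1 to 3. The 3 control values lay close together, and each of the other libraries lay far above them. The group means were 953 ± 14.5 and 1855 ± 56.4 (SD, n = 3), a fold of 1.94 with a 95% interval from 1.71 to 2.21. The limma adjusted p of Prr11 was 0.00778 with all libraries. It was 0.0361, 0.00105 and 0.0756 without siCTL replicates 1, 2 and 3, and 0.125, 0.0991 and 0.112 without siTET3 replicates 1, 2 and 3. It was 0.131 with the replicate number as a block, and 0.229 with a smooth trend on base content removed from each library.

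Nusap1 and Hmmr, which act on the assembling spindle, followed with groups well apart. Nusap1 (chromosome 2, from 119618298 to 119651244, plus strand) bundles microtubules around chromosomes and had 1745, 1388 and 1735 normalised reads in siCTL and 2960.4, 2744 and 2955 in the siTET3-labelled libraries. Its fold was 1.79 (95% interval from 1.47 to 2.17). Hmmr (chromosome 11, from 40701395 to 40733422, minus strand) encodes a microtubule-associated protein also known as a hyaluronan receptor, and had 1924, 1788 and 2053 normalised reads in siCTL and 2926, 2855 and 3204 in the siTET3-labelled libraries, a fold of 1.56 (95% interval from 1.33 to 1.83). In both genes the lowest treated library exceeded the highest control by more than the range of the controls. Limma with all libraries called neither (adjusted p = 0.0590 for Nusap1 and 0.0732 for Hmmr).

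Aspm (chromosome 1, from 139454772 to 139494091, plus strand), which focuses microtubule minus ends at the spindle poles, had the lowest mean of the 10 in siCTL. It had 926, 562 and 928.5 normalised reads in siCTL and 1389, 1383 and 1445 in the siTET3-labelled libraries. The groups were apart, but siCTL replicate 2 held 0.607 times the mean of the other control libraries. The fold was 1.79 (95% interval from 1.27 to 2.51) with all libraries and 1.52 without siCTL replicate 2. With all libraries Aspm did not pass (limma adjusted p = 0.250).

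Tpx2, Tacc3 and Dlgap5, which stabilise spindle microtubules, had overlapping groups. Tpx2 (chromosome 2, from 152847964 to 152895321, plus strand), the activator of Aurora A, was the most abundant of the 10, with 4352, 6631 and 5208 normalised reads in siCTL and 6205, 5968 and 6639 in the siTET3-labelled libraries. Tacc3 (chromosome 5, from 33658128 to 33678995, plus strand), which joins clathrin and Ckap5 in bridges between kinetochore microtubules, had 2502, 3350.2 and 2721 normalised reads in siCTL and 3248, 3305 and 3336 in the siTET3-labelled libraries. Dlgap5 (chromosome 14, from 47387779 to 47418407, minus strand), a kinetochore fibre protein, had 2120.4, 3876 and 2383 normalised reads in siCTL and 2711, 2490.4 and 2671 in the siTET3-labelled libraries. In each of these 3 genes siCTL replicate 2 was the highest control, and siCTL replicates 1 and 3 lay below every siTET3-labelled library. Their folds were 1.18 (95% interval from 0.901 to 1.54), 1.16 (0.946 to 1.43) and 0.973 (0.67 to 1.41).

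The 3 genes of the midzone and furrow were higher without overlap, against 16.1% of all genes tested. So were Prr11, Nusap1, Hmmr and Aspm. Limma with all libraries called none of the 3 (adjusted p = 0.331 for Prc1, 0.135 for Anln and 0.267 for Ect2). Prc1 (chromosome 7, from 80294450 to 80316259, plus strand), which cross-links antiparallel microtubules at the midzone, had 2348, 3799 and 2895 normalised reads in siCTL and 4282, 4279.5 and 4487 in the siTET3-labelled libraries (fold 1.47, 95% interval from 1.10 to 1.97). The annotated gene Rccd1 lies on the opposite strand across all of Prc1 (a gene named after its values were seen), and no source says that counting used strand. Overlap of their exons was not examined, so whether reads of Rccd1 and Prc1 were mixed in the counts was not tested. Rccd1 had a mean of 817 normalised reads in siCTL and 583 in the siTET3-labelled libraries, opposite in direction to Prc1 and highest in siCTL replicate 2 at 1115.

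Anln (chromosome 9, from 22332012 to 22389188, minus strand) encodes anillin, a scaffold of the contractile ring, and had 2762, 2113 and 2616 normalised reads in siCTL and 4021, 3872 and 3986 in the siTET3-labelled libraries (fold 1.60, 95% interval from 1.31 to 1.95). Ect2 (chromosome 3, from 27097222 to 27153878, minus strand), the exchange factor that activates RhoA at the furrow, had 1203, 705.5 and 999 normalised reads in siCTL and 1685, 1594 and 1572 in the siTET3-labelled libraries (fold 1.71, 95% interval from 1.24 to 2.36). The spread of Ect2 was wide in siCTL, where replicate 2 was lowest, and narrow in the siTET3-labelled libraries.

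Per length, the genes spanned a wide range. On the scale of normalised reads per kilobase of the longest coding transcript, the mean level in siCTL ran from 81.6 for Aspm, whose transcript of 9867 bases is the longest of the 10, through 237 for Ect2 and 249 for Prr11 to 460.2 for Nusap1, 494 for Hmmr and 542 for Anln. Dlgap5 had 687, and Tacc3, Prc1 and Tpx2 formed the top with 986, 996 and 1236. Among neighbours in this order the siCTL libraries overlapped for all pairs but Aspm with Ect2 and Prr11 with Nusap1. Prr11 stood at 485 per kilobase in the siTET3-labelled libraries, above Ect2 at 396. By mean level per kilobase over all 6 libraries, the 10 genes lay between the 23.5th percentile (Aspm) and the 80.4th (Tpx2) of all genes tested.

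The control libraries differed among themselves more than those labelled siTET3. The coefficient of variation of the 10 genes had a median of 18.4% in siCTL, from 1.52% for Prr11 to 33.9% for Dlgap5, and of 3.36% in the siTET3-labelled libraries, where the highest was 6.17% for Hmmr. It was smaller in the siTET3-labelled libraries for 9 of the 10, all but Prr11. The medians over all genes tested were 17.1% and 5.14%, a difference in the same direction.

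siCTL replicate 2 stood apart from the other controls for most of the 10. It was the lowest control for 6 genes (Prr11, Nusap1, Hmmr, Aspm, Anln and Ect2) and the highest for the other 4. Relative to the mean of the other controls it ran from 0.607 times in Aspm to 1.72 times in Dlgap5, with 0.983 in Prr11. Among these 10 genes the side on which it fell parted by base content. The share of G and C in the longest coding transcript lay between 40.2% and 45.3% for the 6 genes and between 45.7% and 52.7% for the 4. This division was seen only afterwards and did not hold for every gene described below. Ccna2 (46.1%) and Cdk1 (47.8%), for example, also had siCTL replicate 2 as the lowest control. Over all 11529 genes with a sequence, the log2 deviation of siCTL replicate 2 had a Pearson correlation of 0.35 with that share. Over the 10 genes it was 0.60, a description over genes that share the same libraries. The log2 change between the groups had a correlation of -0.46 with the G and C share over all genes, and of -0.31 without siCTL replicate 2. Each library's deviation was taken from gene means over all 6 libraries, siCTL replicate 2 included. It correlated with the G and C share at -0.11, 0.41 and 0.15 in siCTL and -0.31, -0.32 and -0.37 in siTET3. By the correlation of the log2 change alone, a base-content trend between the groups remains without siCTL replicate 2. The median share was 44.8% over the 10 genes and 50.2% over all genes tested. The 6 genes that the authors' deposited table lists as higher are the 6 in which siCTL replicate 2 was lowest. None of the 4 in which that library was highest is listed. The part of siCTL replicate 2 in these calls was not tested.

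**Figure D3:**
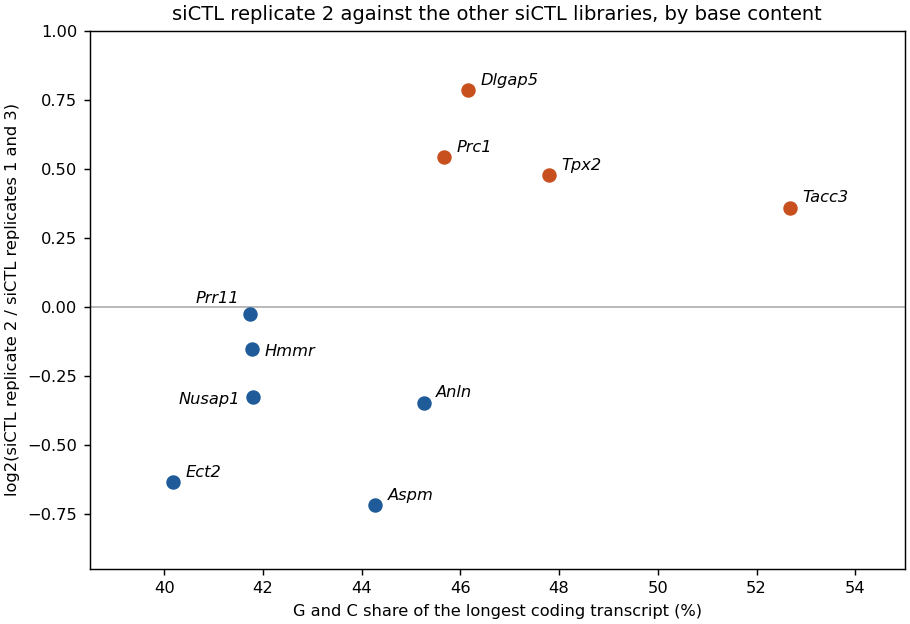
The log2 ratio of siCTL replicate 2 to the mean of siCTL replicates 1 and 3 (vertical axis) against the G and C share of the longest coding transcript in percent (horizontal axis), 1 point per gene. Genes in blue have less and genes in orange more in replicate 2, and the colours part between 45.3% and 45.7%.

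Without siCTL replicate 2 the siTET3-labelled values lay above the remaining siCTL values for 10 of 10 genes, against 21.2% of all genes tested. The log2 changes ran from 0.22 for Dlgap5 to 0.95 for Prr11, with a median of 0.57 against 0.01 over all genes tested. The change of Prr11 hardly moved, from 0.96 to 0.95. Those of Aspm and Ect2 went from 0.84 to 0.60 and from 0.77 to 0.56, and those of Prc1 and Tpx2 from 0.56 to 0.74 and from 0.24 to 0.40. Limma then called 8 of the 10, all but Tpx2 and Dlgap5, against 1.7% of all genes called higher. The choice to leave out this library, here and below, was made after its values were seen, and the planned fit held all libraries. With any other library left out instead, no gene of the 10 but Prr11 passed, and Prr11 only without siCTL replicate 1.

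Removing from each library a smooth trend on base content, besides leaving out siCTL replicate 2, lowered 9 of the 10 changes. The median became 0.47, against 0.00 over all genes tested, with Prr11 at 0.82, Prc1 at 0.67 and Nusap1 at 0.60, and Tacc3 alone went up, from 0.34 to 0.37. Limma called 9 of the 10 in that fit, all but Dlgap5 at 0.16, against 2.23% of all genes called higher. With all 6 libraries and the trend removed, the median was 0.40, Prr11 was at 0.65, and limma called none of the 10, against 0.434% of all genes called higher, with 7 at an unadjusted p under 0.05, against 10.4% of all genes in either direction.

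**Figure D4:**
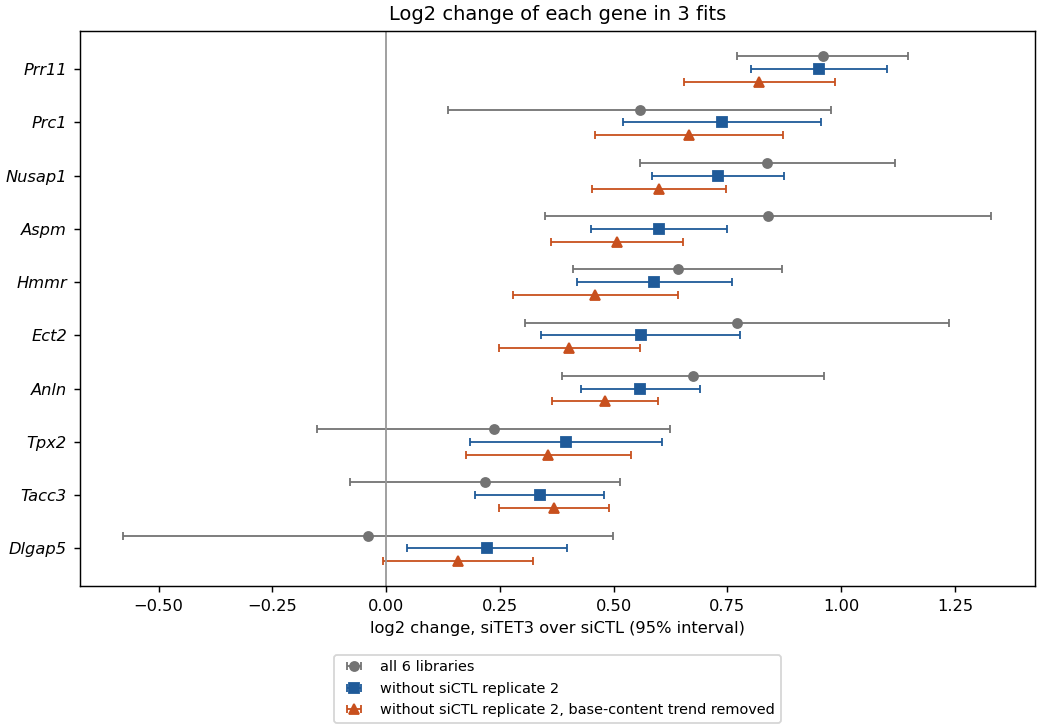
Log2 change of the siTET3-labelled libraries over siCTL with its 95% interval (horizontal axis) for each gene in 3 fits: all 6 libraries (circles), without siCTL replicate 2 (squares), and the latter with the base-content trend removed (triangles). Intervals are narrower without siCTL replicate 2, all 10 squares lie to the right of 0, and Prr11 is farthest right in each fit.

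Of the 10 genes, 4 have a protein-coding gene that starts within 1000 bases on the opposite strand. Ska2, a kinetochore protein gene, starts 526 bases from Prr11, Nudcd2, a co-chaperone gene, 245 bases from Hmmr, Oip5, a gene of centromere loading, 171 bases from Nusap1, and Tmem129, a ubiquitin ligase gene, 288 bases from Tacc3. Ska2 had 731, 462 and 719 normalised reads in siCTL and 894, 864 and 857 in the siTET3-labelled libraries. Its log2 change was 0.48 with all libraries, 0.26 without siCTL replicate 2 and 0.12 after removal of a base-content trend besides, against 0.96, 0.95 and 0.82 for Prr11 (limma adjusted p of Ska2 = 0.374, 0.0993 and 0.467). Oip5 had 544, 424 and 482 normalised reads in siCTL and 629, 563 and 665 in the siTET3-labelled libraries, and its log2 change was 0.36 (limma adjusted p = 0.347). At their starts the annotated genes Oip5 and Nusap1 overlap by 172 bases, and Tmem129 and Tacc3 by 289.

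Nudcd2 and Tmem129 had log2 changes of 0.18 and 0.30 (limma adjusted p = 0.586 and 0.378). Nudcd2 was at -0.03 without siCTL replicate 2, where Hmmr was at 0.59. None of the 4 partners passed limma with all libraries or without siCTL replicate 2. The difference between a partner and its neighbour was not tested.

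Genes that work with the 10 were read from lists from which the 10 were left out. The lists were chosen with earlier results of these data known, so their counts are a description and no independent check of the 10. Over all genes tested, limma gave an unadjusted p under 0.05 in either direction to 13.2% with all libraries and 22.6% without siCTL replicate 2. In the list of central spindle and cytokinesis genes, 14 of 20 lay above 0 on the log2 scale, with a median of 0.30. Limma called none with all libraries, 9 had an unadjusted p under 0.05 (13.2% of all genes), edgeR called 0 and DESeq2 called 6 higher, against 1.91% of all genes. Without siCTL replicate 2 limma called 8 higher, against 1.7% of all genes, and none lower, and the median was 0.38. With the base-content trend also taken out it called 11 higher, against 2.23%. Among them Plk1, the mitotic kinase, went from 1225, 1395 and 1299 normalised reads to 2149, 2076 and 1961 (log2 change 0.71 without siCTL replicate 2, limma adjusted p = 0.00446). Kif4, the motor that Prc1 recruits to the midzone, changed in the same fit by 0.60 on the log2 scale, Kif20b by 0.64, and Kif23 and Racgap1, which form the centralspindlin complex that brings in Ect2, by 0.58 and 0.43 (limma adjusted p = 0.0111, 0.00933, 0.0252 and 0.0117).

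Aurkb, the kinase of the chromosomal passenger complex, passed in some fits and not in others. Its log2 change was 0.30 with all libraries (limma adjusted p = 0.321, DESeq2 adjusted p = 0.0389), 0.29 without siCTL replicate 2 (limma adjusted p = 0.0895) and 0.32 with the trend also taken out (limma adjusted p = 0.0366). Rhoa, the GTPase that Ect2 acts on, had 12471, 16925 and 13154 normalised reads in siCTL and 13129.6, 13010 and 12836 in the siTET3-labelled libraries, with overlapping groups (log2 change -0.11, limma adjusted p = 0.614, DESeq2 adjusted p = 0.620). It was at 0.02 without siCTL replicate 2 and at -0.03 with the trend also taken out (limma adjusted p = 0.850 and 0.827).

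The spindle assembly list holds genes of microtubule nucleation, motors and pole factors. Of 46 genes, 35 had a positive log2 change with all libraries, with a median of 0.26. Limma called none, 16 had an unadjusted p under 0.05 (13.2% of all genes), edgeR called 0 and DESeq2 called 10 higher, against 1.91% of all genes. Without siCTL replicate 2 the median was 0.15 and limma called 9 higher, against 1.7% of all genes, and none lower. With the trend also taken out it called 12 higher, against 2.23%. Aurka, the kinase that Tpx2 activates, had 2363, 2452 and 2689 normalised reads in siCTL and 3463, 3268 and 3481 in the siTET3-labelled libraries (log2 change 0.43 without siCTL replicate 2, limma adjusted p = 0.0331). Kif18b, a motor that shortens astral microtubules, and Ckap2 changed in the same fit by 0.60 and 0.47 on the log2 scale (limma adjusted p = 0.0384 and 0.0333). Fam83d had a log2 change there of 0.70 and did not pass (limma adjusted p = 0.066), but it passed with the trend also taken out (0.75, limma adjusted p = 0.0405) and by DESeq2 with all libraries (adjusted p = 0.00325). Ckap5, the microtubule polymerase that binds Tacc3, was at 0.30 without siCTL replicate 2 and at 0.21 with the trend also taken out (limma adjusted p = 0.117 and 0.223), and DESeq2 gave an adjusted p of 0.113.

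Among 20 regulators of late cell cycle transcription, limma called none with all libraries, 7 had an unadjusted p under 0.05 (13.2% of all genes), edgeR called 0 and DESeq2 called 5 higher, against 1.91% of all genes. Without siCTL replicate 2 limma called 5 higher, against 1.7% of all genes, the cyclin genes Ccna2, Ccnb1 and Ccnb2, their kinase Cdk1, and Rbl1, a pocket protein of the repressive DREAM complex that was named after its values were seen. In that order they rose by 0.70, 0.70, 0.64, 0.43 and 0.36 on the log2 scale (limma adjusted p = 0.00376, 0.00392, 0.00791, 0.00895 and 0.0312). With the trend also taken out limma again called 5, against 2.23%, but Rbl1 was at 0.24 and did not pass (limma adjusted p = 0.0768), and Foxm1 took its place (0.36, limma adjusted p = 0.0271). The activators Foxm1 and Mybl2 had overlapping groups. Foxm1, a forkhead factor of G2 genes, had 2348, 2970.2 and 2649 normalised reads in siCTL and 2940.01, 3014 and 3213 in the siTET3-labelled libraries, and Mybl2, the MYB protein that joins MuvB, had 2414, 3612 and 2819.7 and then 2759.6, 2694 and 2555. Neither passed without siCTL replicate 2 alone (log2 change 0.29 and 0.03, limma adjusted p = 0.0914 and 0.844), and Mybl2 did not pass with the trend also taken out (0.12, limma adjusted p = 0.331). DESeq2 with all libraries called neither (adjusted p = 0.367 and 0.639).

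DNA replication and S phase genes gave no call. Of all genes, limma called 0.293% higher with all libraries and 1.7% without siCTL replicate 2, and DESeq2 called 1.91% with all libraries. No call among 32 genes is near those shares. Of 32, 14 lay above 0 with all libraries and the median log2 change was -0.02, while without siCTL replicate 2 it was 0.02. Limma called none in either fit, with 3 at an unadjusted p under 0.05 in each, or 9.38% of the list against 13.2% and 22.6% of all genes, and DESeq2 and edgeR called 0 with all libraries. The first by p were Cdc6, Ung, Rrm1 and Pola1, with log2 changes of -0.35, -0.48, 0.26 and 0.27 (limma adjusted p = 0.335, 0.368, 0.371 and 0.380). The difference between this list and the 10 genes was not tested. The paralogues of the 10 that were expressed, Tacc1, Tacc2 and Dlgap4, had log2 changes of 0.08, -0.38 and -0.44 with all libraries and 0.15, -0.11 and -0.19 without siCTL replicate 2, none of them called in either fit (limma, 0 and 1 with an unadjusted p under 0.05, and 0 called by DESeq2 or edgeR). Ect2l was at 0 in all 6 libraries, and Dlgap1, Dlgap2 and Dlgap3 lay below 10 normalised reads in each.

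**Figure D5:**
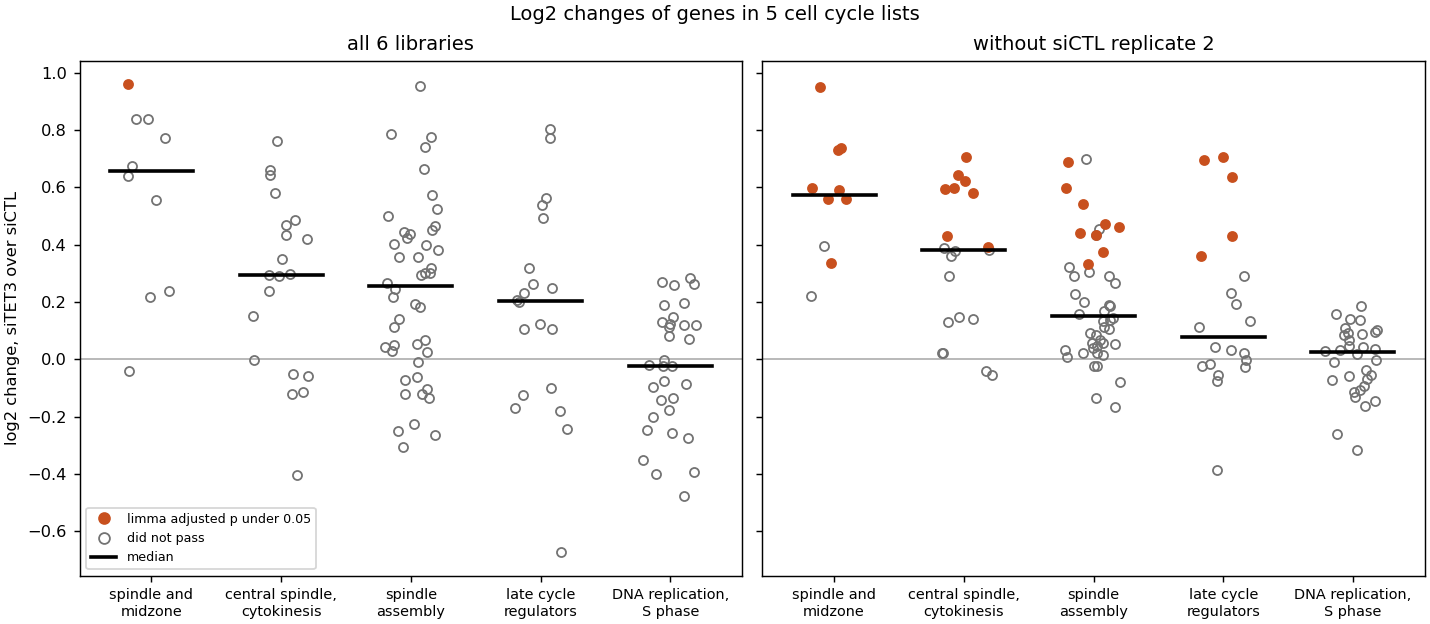
Log2 changes of the siTET3-labelled libraries over siCTL (vertical axis) for the genes of 5 lists, with all libraries (left) and without siCTL replicate 2 (right). Each point is a gene, filled where limma's adjusted p is under 0.05, and bars are medians, which run from 0.57 for the spindle and midzone genes to 0.02 for DNA replication genes on the right.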

How the data were processed

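The authors deposited a table whose signal values are counts per gene after division by a size factor. The evidence is in the values, of which 100% came out as whole reads within 0.001 reads. Beside them the authors deposited log2 fold changes, whose sign was turned to siTET3 over siCTL, p-values and test statistics (score) from DESeq2. Per the submitters' processing notes reads were placed on GRCm38 (mm10). The aligner was not given in the sources used here. The other sheets were not used here. GENCODE M21 on GRCm38 gave positions, transcript lengths and base content (21963 of 22027 identifiers matched).

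Groups were compared by limma 3.58.1 (R 4.3.3) on log2(value + 1) with a variance trend, over 11591 genes with a mean of at least 10 normalised reads, with Benjamini-Hochberg adjustment at 0.05 over all of them. The added 1 makes fold changes of low genes too small. edgeR 4.0.16 (quasi-likelihood) and DESeq2 1.42.0 were run on recovered reads. The base-content trend was a lowess curve of each library's log2 deviation on transcript G and C share, with a span of 0.3. The fit was tested on simulated data with known changes. The spread was set alike in all simulated libraries, so that test does not cover the wider spread of the siCTL libraries here. Likeness was Pearson's r over 6 libraries with the mean standardised profile of the 10 genes.

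The library kit keeps strand, per the labels, but no source says that counting used it. The genes and lists were chosen with earlier results of these data known. Named besides the 10 are divergent partners within 1000 bases, the 6 genes most like them with a mean of at least 100 normalised reads, up to 4 genes in order of limma p from each list (central spindle and cytokinesis, spindle assembly, regulators of late cell cycle transcription, paralogues, DNA replication), and 9 direct partners of the 10. With 3 libraries a group, intervals and p-values cover only the spread between these libraries.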

Additional observations from a re-analysis of the deposited data

How the results depend on the processing

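Of 10 spindle and midzone genes, limma called 1 higher with all libraries, against 0.293% of all genes. The count was 1 under both other pseudocounts, both other filters, scaling to library size alone, TMM scaling and edgeR (0.285% of all genes for edgeR). It was 6 under DESeq2, against 1.91%, and 0 with the GC trend removed, against 0.434%. When each library was left out in turn it ran from 0 to 8, the 8 without siCTL replicate 2, against 1.7%. It was 9 without siCTL replicate 2 with the GC trend removed, against 2.23%. The median log2 change of the 10 genes, 0.66 with all libraries, ran from 0.57 to 0.70 when each library was left out. It was 0.74 with scaling to library size alone, which moves the median of all genes to 0.08. It was 0.40 with the GC trend removed, also with the replicate block, and 0.47 without siCTL replicate 2 with the GC trend removed. The cause of these moves was not tested. The log2 change of Dlgap5 was -0.04 with all libraries, 0.045 with scaling to library size alone, 0.22 without siCTL replicate 2 and 0.16 with the GC trend also removed, and leaving out each library gave from -0.21 to 0.22.

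Over all genes, 34 were higher and 7 lower. DESeq2 called 216 and 219, and limma 257 and 163 without siCTL replicate 2 with the GC trend removed. Leaving out each library gave from 2 to 197 higher and from 0 to 123 lower. The lower count was 4 with no filter and 2 with scaling to library size alone. Spindle assembly genes called higher numbered 0 with all libraries, 10 under DESeq2, from 0 to 9 when each library was left out and 12 without siCTL replicate 2 with the GC trend removed. For central spindle and cytokinesis genes the counts were 0, 6, from 0 to 8 and 11, and 1 with scaling to library size alone or with the GC trend removed. The shares of all genes called higher were 0.293% with all libraries, 1.91% under DESeq2 and 0.434% with the GC trend removed. They were 1.7% without siCTL replicate 2, and 2.23% with the GC trend removed besides.

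With the replicate number as a block limma called 1 gene higher and 0 lower, and 0 of the 10, and with the replicate block and the GC trend removed 4, 0 and 0. Same-numbered libraries did not deviate together (r over genes of 0.03, -0.06 and -0.10 for replicates 1 to 3), and no library correlated best with its own number, so the numbers were not taken as pairs.

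Changes of sign otherwise concerned genes that limma did not call. Tet3 went from -0.06 to 0.029 with scaling to library size alone, and to 0.035 with the GC trend removed with or without the replicate block. Nudcd2 went to -0.031 with the GC trend removed with or without the block and to -0.13 also without siCTL replicate 2, and leaving out each library gave from -0.033 (without siCTL replicate 2) to 0.34. Mybl2, at -0.12 with all libraries, was at 0.038 with the GC trend removed with or without the block and at 0.12 also without siCTL replicate 2, with a range from -0.26 to 0.032. Rhoa ranged from -0.20 to 0.020 (without siCTL replicate 2), and Pola1, at 0.27 with all libraries, was at -0.050 with the GC trend removed with or without the block. The CHR was found in 6 of 8 promoters in the shorter window of 150 bases before the start as TTTGAA alone, against 11.3% of all promoters. The window near the start, chosen after seeing the data, gave 6 of 8 against 1.71%. Depth did not limit the 10 genes, whose lowest value was 562 normalised reads.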

Other observations

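The mean standardised profile of the 10 genes over the 6 libraries was compared with 9836 other genes with a mean of at least 100 normalised reads, leaving out predicted genes. The 6 most alike by Pearson's r over 6 libraries were Oasl2 (r = 0.996), Zbp1 (0.995), Epsti1 (0.989), Isg15 (0.989), Dhx58 (0.988) and Racgap1 (0.988). Oasl2 had 15.0, 38.0 and 27.3 normalised reads in siCTL and 254, 204 and 222 in the libraries labelled siTET3. It thus met the minimum mean only through the libraries where it is high, and nothing is read from its rank. The first 5 are known as interferon-stimulated genes, and Racgap1 is the midzone partner of Ect2 described above. The profile ran from -0.94 in siCTL replicate 1 to 0.79 in siTET3 replicate 3, so a high r mainly says that a gene separates the labelled groups with little spread. Isg15 had 376, 468.6 and 383 normalised reads in siCTL and 1284, 1349 and 1359.7 in the libraries labelled siTET3. Among the 10 themselves r ran from 0.11 for Dlgap5 and 0.71 for Tpx2 to 0.95 for Hmmr and 0.98 for Prr11.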
